A study of Mus musculus with 24 samples.

Results

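Activated regulatory T cells (aTreg) were compared with resting regulatory T cells (rTreg) taken from the spleens of the same old mice, which addresses the question of which transcripts separate these subsets at an advanced age. All mice were wild-type C57BL/6JRccHsd. aTreg cells were sorted as Tregs without CD62L and with CD44, and rTreg cells as Tregs with CD62L and without CD44. Each of 4 mice aged 26 months gave 1 library of each subset, so 8 of the 24 libraries of the series enter, and the aTreg and rTreg libraries of 4 mice aged 2 months serve for comparison between ages. A gene was included when its value reached 10 in at least 4 of the 8 old libraries, which held for 14571 of the 17464 genes listed. A value is the number of reads on a gene divided by 1 size factor of its library, and 1 read was worth between 0.694 and 1.30 units in these 8 libraries.

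Tregs restrain other immune cells and depend on the transcription factor FOXP3. In the resting state they circulate between blood and lymphoid organs, guided by homing receptors such as CCR7. After antigen contact they lose these receptors, gain CD44 and other adhesion molecules, and express chemokine receptors that lead into inflamed or barrier tissues. ID2 and ID3 inhibit E-protein transcription factors and mark opposite ends of this transition, ID3 the resting and ID2 the effector state.

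The 8 libraries held between 15267276 and 29521942 reads on listed genes. Between 419 and 573 genes were listed at 0 in the old aTreg libraries and between 1215 and 2756 in the old rTreg libraries, a difference that moved with the groups compared and whose part in the results was not tested. Of the 7 genes that define T cells 0 were called by limma, 3 had an unadjusted p below 0.05, 1 was called by DESeq2 and 3 were called higher without mouse 3. All 7 had log2 fold changes above 0, the groups did not overlap for 1 of them, and their summed value was 112655 to 131441 in old aTreg and 90477 to 119014 in old rTreg libraries. *Foxp3* had values of 16925, 5079, 18346 and 19813 in the aTreg libraries of mice 1 to 4 and 26513, 20458, 13151 and 26265 in their rTreg libraries. The aTreg library of mouse 2 was thus the lowest of the 8 for *Foxp3*. The 4 Treg markers *Foxp3*, *Il2ra*, *Ctla4* and *Ikzf2* summed to 13336 in it, against 31898 to 46567 in the other 7 libraries, and its sum over 9 genes of conventional helper T cells was the highest, at 18237 against 10480 to 15548. The calls were therefore repeated without both libraries of this mouse.

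Genes of cells other than T cells were found in the old rTreg libraries. The 6 markers of basophils and mast cells summed to 3932, 8140, 9961 and 6421 in the old rTreg libraries of mice 1 to 4, to 99, 206, 179 and 170.5 in the old aTreg libraries, and to between 58.7 and 165 in the young rTreg libraries. The 12 markers of monocytes and macrophages summed to 17619, 10262, 26819 and 10312 in old rTreg and to 260.3 to 443 in old aTreg libraries. Both sums were higher in each old rTreg library than in any old aTreg library, and *Mcpt8*, *Ms4a2*, *Fcer1a*, *Gata2* and *Prss34* were at 0 in at least 2 old aTreg libraries. The 11 neutrophil markers were high in the rTreg libraries of only some mice, with sums of 666, 17398, 21771 and 1008 in mice 1 to 4, against 5.21 to 304 in old aTreg libraries. The B cell markers summed to 1001 to 1680 in old rTreg and 623 to 1265 in old aTreg libraries, so these groups overlapped, and the B cell gene *Ebf1* was at 0 in all 4 old aTreg libraries. In bulk libraries, fewer cells of a type and less RNA per cell cannot be told apart.

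**Figure D1:**
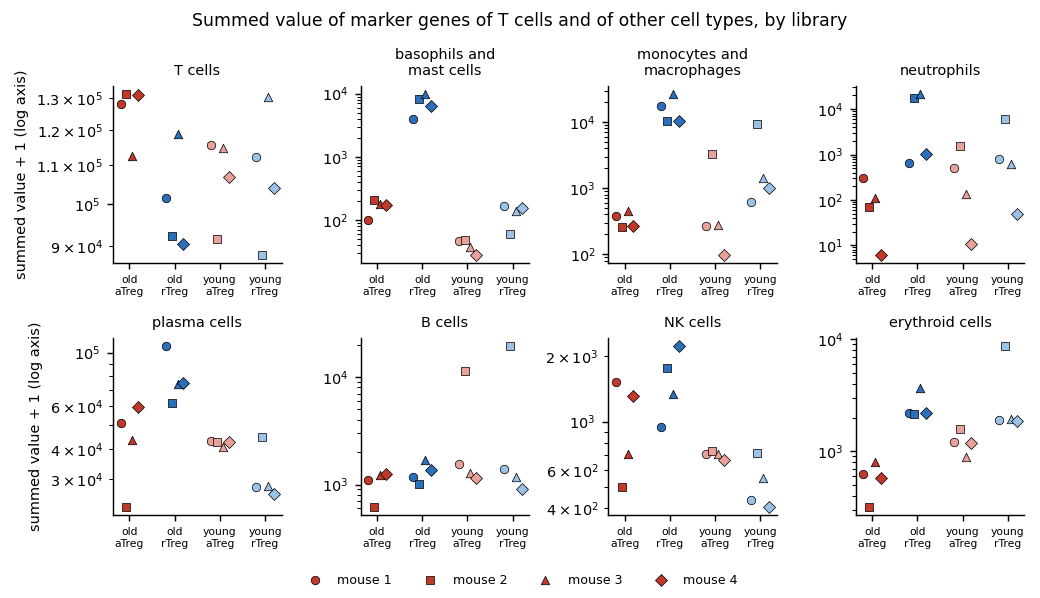
Summed values of the marker genes of T cells and of 7 other cell types in the 16 aTreg and rTreg libraries, on log axes with 1 added. Each point is 1 library, its shape gives the mouse and its color the group. The basophil and monocyte markers are high in all 4 old rTreg libraries, the neutrophil markers in those of mice 2 and 3, and the B cell markers in both libraries of young mouse 2, whose rTreg library is also high for monocyte markers.

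In the fit with the mouse as a block, 261 genes were higher and 440 genes were lower in old aTreg than in old rTreg cells (limma, with calls at p below 0.05 after Benjamini-Hochberg adjustment and more than 1.5-fold change). These were 1.79% and 3.02% of the genes tested, the shares against which the counts of each gene list below are to be read. All 261 and all 440 differed in the same direction in each of the 4 mice, and the groups did not overlap for 234 of the higher and 431 of the lower genes. The genes were called from these same libraries, so these counts are no further support, and no share over all genes tested is given. The median log2 fold change was 2.30 over the higher and −2.23 over the lower genes, against 0.08 over all genes tested. Of the higher genes 33 stayed below a value of 10 in every old rTreg library, and of the lower genes 66 did so in every old aTreg library. For such genes the fold change depends on the pseudocount of 1. Unadjusted p was below 0.05 for 2664 genes. Without mouse 2, 129 genes were called higher and 249 lower, of which 103 and 239 were among the 261 and 440. The other genes partly dropped out by construction, since a value of 10 in 4 of 6 libraries was then needed and 210 of the 261 and 368 of the 440 could be tested. All of those 210 and 368 kept their direction, which was fixed in advance by the same direction in all 4 mice. Without mouse 1 the counts were 53 and 132, and without mouse 4 they were 64 and 160. By edgeR 135 genes were higher and 334 lower, and by DESeq2 746 and 785.

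**Figure D2:**
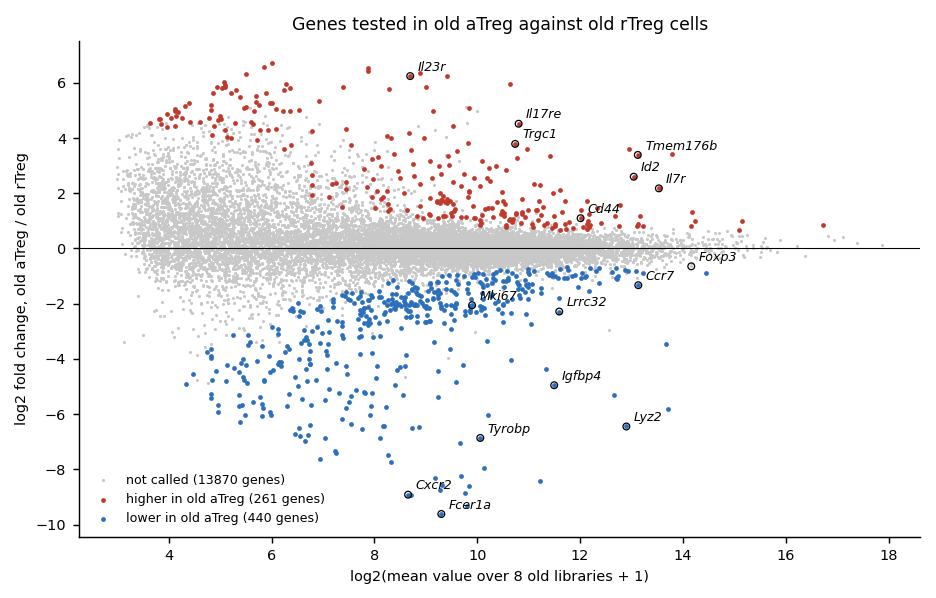
Log2 fold change of each tested gene between old aTreg and old rTreg cells (y axis) by its log2 mean value over the 8 libraries with 1 added (x axis). Red and blue points are the 261 genes called higher and the 440 called lower, grey points are not called, and circles mark genes discussed in the text. *Igfbp4* and *Lyz2* lie far below 0 at high values, and *Foxp3* lies among the genes that were not called.

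The transcript of a protein used in the sort followed it. *Cd44*, which encodes the hyaluronan receptor used to select aTreg cells, was 5688, 6441, 5192 and 4896 in aTreg and 2839, 3756, 2411 and 1733 in rTreg libraries of mice 1 to 4. Its log2 fold change was 1.10 (SE 0.17, adjusted p = 0.0109, limma), and every aTreg library lay above every rTreg library. The call was lost without mouse 1 and without mouse 4. This transcript tests nothing beyond the gate, since the gate selected on its protein.

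*Id2* and *Igfbp4*, which were not used for sorting, separated the subsets in every mouse. *Id2* (chromosome 12, bases 25143798 to 25147282 of GRCm39) was 16071, 16937, 10867 and 14027 in aTreg and 2774, 2824, 1837 and 2138 in rTreg libraries. Its log2 fold change was 2.60 (SE 0.13, adjusted p = 0.000151, limma). *Igfbp4* (chromosome 11, bases 98932064 to 98945218), which encodes a secreted protein that binds insulin-like growth factors and is high in naive T cells, was 121, 94, 348 and 241 in aTreg and 4865, 4183, 6438 and 6802 in rTreg libraries. Its log2 fold change was −4.95 (SE 0.25, adjusted p = 0.000151, limma). *Id3* moved the other way to *Id2*, with 1311 to 2004 in aTreg and 2392 to 4780 in rTreg libraries (log2 fold change −0.96, adjusted p = 0.0175, limma).

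Genes of the resting state were more often lower than higher. Of 24 genes of quiescence and recirculation 10 were lower and 1 was higher in old aTreg cells, with a median log2 fold change of −0.84 and medians of −0.86, −0.49, −0.89 and −1.10 in mice 1 to 4. Without mouse 2 the counts were 11 lower and 1 higher of 23 tested, and without mouse 1 and without mouse 4 they were 5 lower and 1 higher. Besides *Igfbp4* and *Id3*, the lower genes included *Ccr7*, *Lef1*, *Bach2*, *Actn1*, *Dapl1*, *Treml2* and *Atp1b1*. *Ccr7*, the receptor for lymph node entry, was 4938, 7383, 4263 and 4172 in aTreg and 13284, 10725, 14311 and 12686 in rTreg libraries (log2 fold change −1.33, adjusted p = 0.0145, limma). *Lef1*, a transcription factor of naive T cells, was 1869 to 2022 in aTreg and 3374 to 4238 in rTreg libraries (log2 fold change −1.0, adjusted p = 0.0105, limma). *Bach2*, a repressor of effector genes, was 231, 247, 336 and 304 in aTreg and 941, 1174, 1067 and 1421 in rTreg libraries (log2 fold change −2.04, adjusted p = 0.00306, limma). The calls of *Ccr7*, *Lef1* and *Id3* were lost without mouse 1 and without mouse 4, and those of *Igfbp4* and *Bach2* were kept whichever mouse was left out.

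Several genes of the resting state did not pass the test. *S1pr1*, which encodes the receptor for exit from lymphoid organs, had a log2 fold change of −1.07 (SE 0.27, adjusted p = 0.071, limma), and its regulator *Klf2* had −1.03 (SE 0.29, adjusted p = 0.106, limma). In mouse 2 the aTreg values of both were close to the rTreg values or above them, with 9832 against 10295 for *S1pr1* and 8455 against 7479 for *Klf2*. Without mouse 2 both were called lower, *S1pr1* at −1.41 (adjusted p = 0.0189, limma) and *Klf2* at −1.43 (adjusted p = 0.0114, limma). *Tcf7*, a partner of *Lef1*, was 14652 to 24003 in aTreg and 11551 to 21091 in rTreg libraries (adjusted p = 0.872, limma).

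The 1 gene of this list that was higher, *Il7r*, encodes the alpha chain of the interleukin-7 receptor, which sustains naive and memory T cells. It was 20332, 28423, 14793 and 12889 in aTreg and 6135, 7252, 2487 and 2376 in rTreg libraries of mice 1 to 4, with no overlap. Its log2 fold change was 2.18 (SE 0.18, adjusted p = 0.00107, limma).

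**Figure D3:**
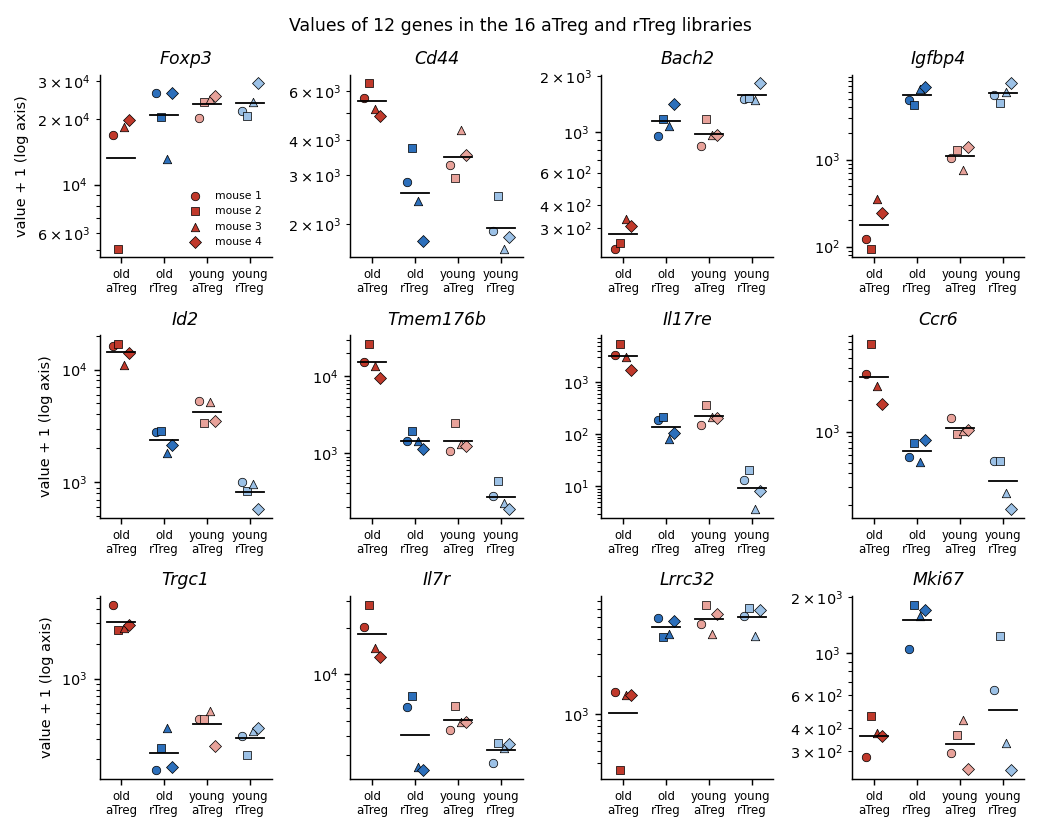
Values of 12 genes in the 16 aTreg and rTreg libraries of old and young mice, with 1 added, on log axes. Each point is 1 library, its shape gives the mouse, and the line is the geometric mean of 4 libraries. For *Id2*, *Tmem176b*, *Il17re* and *Il7r* each old aTreg library lies above every old rTreg library, and for *Bach2*, *Igfbp4*, *Lrrc32* and *Mki67* each lies below.

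*Tmem176b* and *Tmem176a*, which encode membrane proteins found together in lymphocytes and dendritic cells, were among the 12 higher genes with the smallest p. *Tmem176b* was 15402, 26730, 13603 and 9614 in aTreg and 1442, 1915, 1444 and 1123 in rTreg libraries, a log2 fold change of 3.39 (SE 0.16, adjusted p = 0.000151, limma). *Tmem176a* was 13253, 27429, 10711 and 7655 in aTreg and 1244, 1490, 1125 and 627 in rTreg libraries, a log2 fold change of 3.62 (SE 0.19, adjusted p = 0.000151, limma). Both were highest in the aTreg library of mouse 2 and lowest in that of mouse 4, and the lowest aTreg value was above the highest rTreg value.

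These genes lie head to head on chromosome 6, *Tmem176b* on the minus strand (bases 48809099 to 48819233 of GRCm39) and *Tmem176a* on the plus strand (48817813 to 48824005), and their annotated transcripts overlap, so reads of 1 gene can be counted for the other if the counting ignored strand. The 108 bases between the nearest pair of their RefSeq start sites are shown on the plus strand. They come from the RefSeq promoter table (GRCm38.p6) and were found once in GRCm39 at chr6:48818309-48818416. Whether this interval has a part in the change of either gene was not tested.
*Tmem176b* to *Tmem176a*: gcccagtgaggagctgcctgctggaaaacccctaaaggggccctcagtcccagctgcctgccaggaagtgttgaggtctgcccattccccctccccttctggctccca
No base is in capitals, since the motif searched for, AGGTCA of retinoid-related orphan receptors, had 0 matches on either strand. Of this interval 63.9% was G or C. In RefSeq windows of 250 bases before the start site, AGGTCA was present in 11.9% of 260 windows of the higher genes. It was present in 9.42% of 414 windows of the lower genes and in 10.9% of 12540 windows of all tested genes.

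*Il17re*, a chain of the receptor for interleukin-17C, was 3398, 5502, 3053 and 1745 in aTreg and 187, 218, 81.2 and 107 in rTreg libraries, a log2 fold change of 4.52 (SE 0.25, adjusted p = 0.000223, limma). *Rora*, a nuclear receptor, was 3948 to 5303 in aTreg and 1184 to 2652 in rTreg libraries (log2 fold change 1.31, adjusted p = 0.0071, limma), a call lost without mouse 4.

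*Il23r*, the receptor chain for interleukin-23, was 599.6, 1519, 578 and 479 in aTreg libraries and 64.1, 66.6, 0 and 0.762 in rTreg libraries (adjusted p = 0.0126, limma). The transcript of the cytokine *Il17f* was low, at 62.7, 154, 191 and 69 in aTreg and 0, 4.16, 0 and 10.7 in rTreg libraries (adjusted p = 0.0204, limma). The calls of both were lost by edgeR, that of *Il23r* also without mouse 4, and that of *Il17f* without mouse 1 or mouse 2. The rTreg values of both genes reached 0, so their fold changes are not given.

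*Ccr6*, a chemokine receptor of several lymphocyte types, was 3510, 6807, 2731 and 1813 in aTreg and 573, 776, 512 and 832 in rTreg libraries, a log2 fold change of 2.32 (SE 0.31, adjusted p = 0.00647, limma). *Mmp25*, a membrane-anchored metalloproteinase, and *Krt83*, a hair keratin, had log2 fold changes of 3.16 (adjusted p = 0.00182, limma) and 3.81 (adjusted p = 0.00107, limma). *Krt83* was 2060, 1740, 1609 and 1296 in aTreg and 89.1, 88.5, 213 and 110.5 in rTreg libraries. For *Tmem176b*, *Tmem176a*, *Il17re*, *Il23r* and *Ccr6* the highest aTreg value was that of mouse 2. Its aTreg library had the lowest *Foxp3* and the highest sum of helper T cell genes. The calls of these genes were all kept without both libraries of mouse 2 (limma). The part of helper T cell genes in these calls was not otherwise tested.

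In the list of effector transcription factors 4 of 21 genes were higher and 0 were lower, with a median of 0.52. They included *Id2*, *Rora* and *Bhlhe40*. Without mouse 2, 6 were higher and 0 lower, and the higher ones numbered 3 without mouse 1, 3 without mouse 3 and 2 without mouse 4. *Bhlhe40*, which supports cytokine production, was 7789, 5840, 6186 and 6809 in aTreg and 1745, 4964, 1118 and 1623 in rTreg libraries (log2 fold change 1.73, adjusted p = 0.0324, limma), and the rTreg library of mouse 2 came near its aTreg library. Its call was lost by edgeR and without mouse 1, mouse 3 or mouse 4. Among the factors that mark other effector Tregs, *Maf* (log2 fold change 0.97, adjusted p = 0.0686, limma), *Prdm1* (1.02, adjusted p = 0.267, limma) and *Gata3* (0.52, adjusted p = 0.124, limma) did not pass the test. *Prdm1* was higher in aTreg than in rTreg cells in mice 1, 3 and 4 and lower in mouse 2.

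Constant regions of the T cell receptor gamma chain were among the genes with the smallest p. *Trgc1* was 4377, 2646, 2763 and 2903 in aTreg and 159, 251, 371 and 170 in rTreg libraries, a log2 fold change of 3.79 (SE 0.31, adjusted p = 0.00107, limma). *Trgc2* was 6621, 760.3, 3701 and 3810 in aTreg and 295, 63.5, 439.9 and 374 in rTreg libraries, a log2 fold change of 3.61 (SE 0.26, adjusted p = 0.000662, limma). Mouse 2 had the lowest *Trgc2* value of both groups. The gamma chain constant regions resemble each other, so reads can be divided between them uncertainly. Transcripts of the gamma chain also occur in T cells with an alpha-beta receptor. The delta chain constant region *Trdc*, chosen after its values were seen, was 104, 61, 169 and 167 in aTreg and 217, 118, 249 and 236 in rTreg libraries (log2 fold change −0.76, adjusted p = 0.271, limma). The alpha chain constant region *Trac*, chosen in the same way, was 27085, 22784, 28757 and 32771 and 21080, 15939, 15639 and 19035 (log2 fold change 0.63, adjusted p = 0.0573, limma). The gamma chain genes thus passed the test, and the alpha and delta chain genes did not.

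Of 19 chemokine receptors 7 were higher and 3 were lower, against 1.79% and 3.02% of all genes tested. Without mouse 1 as without mouse 4, 4 were higher and 1 was lower. The higher ones were *Cxcr6*, *Ccr2*, *Ccr4*, *Ccr6*, *Ccr8*, *Ccr9* and *Cxcr3*, which guide cells to barrier tissues and sites of inflammation. *Cxcr6* had the smallest p, with 28941, 32065, 20659 and 21000 in aTreg and 2064, 3527, 2933 and 1445 in rTreg libraries and a log2 fold change of 3.42 (SE 0.20, adjusted p = 0.000256, limma). *Ccr8* was 3241 to 4297 in aTreg and 832 to 1615 in rTreg libraries (log2 fold change 1.52, adjusted p = 0.00619, limma), and *Ccr4* was 1749 to 5062 and 434 to 996 (log2 fold change 1.79, adjusted p = 0.00468, limma). The lower ones were *Ccr7*, *Ccr1* and *Cx3cr1*. *Ccr1*, a receptor best known from myeloid cells, was 35.4, 19.6, 79.5 and 22.1 in aTreg and 154, 288, 751 and 302 in rTreg libraries, and *Cx3cr1*, known from monocytes and natural killer cells, was 10.9, 10.3, 11 and 26 and 282, 53.1, 125 and 322. The monocyte and neutrophil marker sums given above were also higher in every old rTreg than in every old aTreg library. Among the rTreg libraries *Ccr1* and both sums were highest in mouse 3, at sums of 26819 and 21771. *Cx3cr1* was highest in mouse 4, where these sums were 10312 and 1008. Their part in these calls was not tested.

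Of 32 cytokine receptors 7 were higher and 5 lower, against 1.79% and 3.02% of all genes tested, with a median of −0.08. Without mouse 1, 4 were higher and 2 lower, and without mouse 4, 1 was higher and 3 were lower. The higher ones were *Il7r*, *Il2rg*, *Il18r1*, *Il1r1*, *Il1r2*, *Il23r* and *Ifngr1*. *Il18r1*, a receptor chain for interleukin-18, was 1510 to 2984 in aTreg and 473 to 1236 in rTreg libraries (log2 fold change 1.34, adjusted p = 0.0117, limma). *Ifngr1*, a chain of the interferon gamma receptor, was 20378 to 28175 and 10677 to 17749 (log2 fold change 0.80, adjusted p = 0.018, limma). The lower ones were *Il6ra*, *Il6st*, *Il1rl1*, *Csf1r* and *Csf2rb*. *Il6ra*, which binds interleukin-6 and is high in naive T cells, was 276, 470, 412 and 360.5 in aTreg and 1237, 953, 980.3 and 1290 in rTreg libraries (log2 fold change −1.57, adjusted p = 0.0145, limma). *Il1rl1* encodes ST2, the interleukin-33 receptor of tissue Tregs, basophils and mast cells. It was 164, 139.5, 257 and 185 in aTreg and 1249, 688, 686 and 629 in rTreg libraries (log2 fold change −2.10, adjusted p = 0.00963, limma), a call lost without mouse 1, whose rTreg library was the highest. The rTreg libraries in which *Il1rl1* was higher than in aTreg libraries also had high basophil and mast cell marker sums. Among the rTreg libraries, however, that of mouse 1 had the highest *Il1rl1* and the lowest of these sums, 3932 against 6421 to 9961. The part of these sums in this call was not tested.

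Among 26 cytokines and chemokines tested 7 were higher and 3 lower, with a median of 1.06. The higher ones numbered 1 without mouse 1, 1 without mouse 4, 4 without mouse 2 and 4 by edgeR. The higher ones were *Tnfsf14*, *Cxcl10*, *Tnf*, *Il17f*, *Ccl1*, *Tnfsf8* and *Tnfsf11*. *Tnfsf14*, which encodes the costimulatory ligand LIGHT, was 986, 1493, 912 and 923 in aTreg and 137, 203, 96.4 and 268 in rTreg libraries (log2 fold change 2.68, adjusted p = 0.00338, limma). *Cxcl10*, a ligand of CXCR3, was 871 to 1588 and 63.1 to 413 (log2 fold change 2.41, adjusted p = 0.0147, limma), and *Tnf* was 1336 to 1533 and 624 to 812 (log2 fold change 1.02, adjusted p = 0.0189, limma). Both calls were lost without mouse 1 and without mouse 4, and that of *Tnf* also without mouse 2. The lower ones, *Il6*, *Ccl3* and *Ccl4*, are products of activated myeloid and other cells. *Il6* was 0, 2.07, 0 and 1.3 in aTreg and 131, 263, 454 and 353 in rTreg libraries, and *Ccl3* was 53.6, 14.5, 35.4 and 24.7 and 939, 1596, 4905 and 1896.

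Of 24 costimulatory and inhibitory receptors and ligands 3 were higher and 1 lower, against 1.79% and 3.02% of all genes tested. Without mouse 1 as without mouse 4, 1 was higher and 1 lower. *Cd40lg*, which encodes the ligand that activates B cells and dendritic cells and is typical of helper T cells, was 4208, 6568, 3923 and 3325 in aTreg and 1112, 1785, 536 and 1265 in rTreg libraries (log2 fold change 2.02, adjusted p = 0.00468, limma). *Cd226*, an activating receptor, was 2437 to 2852 and 774 to 1338 (log2 fold change 1.31, adjusted p = 0.012, limma). *Pdcd1lg2*, which encodes the inhibitory ligand PD-L2, was 663 to 865 and 225 to 470.4 (log2 fold change 1.22, adjusted p = 0.0427, limma), a call lost by edgeR and without mouse 1, mouse 2 or mouse 4. *Cd244a*, a receptor of natural killer and myeloid cells, was 8.26 to 26.8 in aTreg and 199.8 to 1116 in rTreg libraries (log2 fold change −4.68, adjusted p = 0.00159, limma). Of 9 markers of conventional helper T cells *Cd40lg* was higher and *Eomes* lower, and their summed value was 12648 to 18237 in aTreg and 10480 to 15548 in rTreg libraries.

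In the BCL2 family 4 of 16 genes were higher and 0 lower, against 1.79% and 3.02% of all genes tested. Without mouse 1 as without mouse 4, 1 was higher, and the calls of *Bcl2a1a*, *Bcl2a1b* and *Bcl2a1d* were lost. The anti-apoptotic *Bcl2a1b* was 3125, 3834, 2839 and 3351 in aTreg and 1074, 1291, 1495 and 1165 in rTreg libraries (log2 fold change 1.39, adjusted p = 0.00561, limma). Its copies *Bcl2a1d* (log2 fold change 1.60, adjusted p = 0.0146, limma) and *Bcl2a1a* (2.67, adjusted p = 0.0124, limma) are nearly identical in sequence, so the division of reads among these 3 is uncertain. The pro-apoptotic *Bik* was 394, 843, 272 and 292 in aTreg and 52.1, 70.8, 19.4 and 43.4 in rTreg libraries (log2 fold change 3.23, adjusted p = 0.00372, limma). The heat shock gene *Hspa1b* was also higher in every mouse (log2 fold change 2.31, SE 0.17, adjusted p = 0.00073, limma). Its values were 1211, 6253, 6778 and 1326 in aTreg and 216, 1265, 1651 and 251 in rTreg libraries, high in both libraries of mice 2 and 3 and low in both of mice 1 and 4, and the call was lost when the mouse was left out of the model. *Asb2*, a ubiquitin ligase subunit on the list of 14 follicular Treg genes, was the 1 gene of that list called, at 4493, 4950, 5468 and 4762 and 666, 616, 334 and 396 (log2 fold change 3.34, adjusted p = 0.000608, limma).

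Of 20 genes of Treg identity and function 0 were higher and 2 lower, also without mouse 2, with a median of −0.17. The lower genes were *Lrrc32*, which encodes GARP, the surface anchor for latent TGF-β, and *Gpr83*, an orphan receptor of Tregs. *Lrrc32* was 1493, 351, 1424 and 1428 in aTreg and 5924, 4140, 4393 and 5564 in rTreg libraries, a log2 fold change of −2.28 (SE 0.31, adjusted p = 0.00674, limma). Without mouse 2, whose aTreg library was the lowest, it was −1.86 (adjusted p = 0.00665, limma). *Gpr83* was 1474, 481, 1406 and 1516 in aTreg and 4455, 2149, 2483 and 5464 in rTreg libraries (log2 fold change −1.60, adjusted p = 0.00938, limma, and −1.42 without mouse 2). Its call was lost without mouse 1 and without mouse 4, when 1 gene of the list was lower.

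*Foxp3* itself had a log2 fold change of −0.65 (SE 0.35, adjusted p = 0.379, limma) and of −0.19 without mouse 2 (adjusted p = 0.751, limma). *Il2ra*, the high-affinity interleukin-2 receptor chain, was 4558, 2901, 4280 and 4159 in aTreg and 7021, 3334, 5027 and 6605 in rTreg libraries (log2 fold change −0.43, adjusted p = 0.195, limma). *Ctla4* (log2 fold change −0.36, adjusted p = 0.524, limma) and *Ikzf2* (−0.16, adjusted p = 0.831, limma, and 0.14 without mouse 2) did not pass the test either. The aTreg library of mouse 2 was the lowest of the 4 for each of these.

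Of 19 suppressive and repair mediators *Penk*, which encodes proenkephalin, was higher, and *Lrrc32* and *Gzma* were lower. *Penk* was 5143, 4275, 6326 and 8122 in aTreg and 1559, 3388, 2590 and 1661 in rTreg libraries (log2 fold change 1.41, adjusted p = 0.0371, limma), a call lost by edgeR and without mouse 1, mouse 3 or mouse 4.

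Of 32 genes of the early response to the T cell receptor 1 was higher and 4 were lower, with a median of −0.08. Of all genes tested 1.79% were higher and 3.02% lower. *Nr4a1*, a reporter of receptor signal strength, was 1020, 1009, 1557 and 1425 in aTreg and 2762, 3211, 2525 and 3628 in rTreg libraries (log2 fold change −1.29, adjusted p = 0.012, limma). *Dusp4*, a phosphatase of MAP kinases, was 77.5 to 223 and 362 to 626 (log2 fold change −1.92, adjusted p = 0.018, limma). *Ier3* and *Zfp36* were the other lower genes, and *Dusp1* the higher gene (log2 fold change 0.80, adjusted p = 0.0365, limma). The calls of *Nr4a1*, *Dusp4*, *Zfp36* and *Dusp1* were lost without mouse 1 and without mouse 4, that of *Dusp1* also without mouse 3, by edgeR and, like that of *Zfp36*, in the fit to all 24 libraries. In the interleukin-2 signaling pathway *Socs3* (−1.26, adjusted p = 0.0144, limma) and *Stat5a* (−0.89, adjusted p = 0.0344, limma) were lower, and *Cish* (0.83, adjusted p = 0.0417, limma) was higher, 3 of the 15 STAT and SOCS genes. All 3 calls were lost without mouse 1 and without mouse 4, those of *Stat5a* and *Cish* also by edgeR, that of *Stat5a* without mouse 2 and that of *Cish* without mouse 3. *Myc* did not pass the test (log2 fold change −0.36, adjusted p = 0.325, limma).

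The list of mitosis genes held more lower genes than any other of the 42 lists. Of 40 genes of mitosis and the G2/M phase 37 were lower and 0 higher in old aTreg cells, where 3.02% of all genes were lower. Their median log2 fold change was −2.06, with medians of −2.18, −1.62, −2.24 and −2.07 in mice 1 to 4. *Mki67*, the proliferation antigen, was 278, 459, 372 and 362 in aTreg and 1055, 1822, 1579 and 1699 in rTreg libraries (log2 fold change −2.06, SE 0.19, adjusted p = 0.00163, limma). *Kif11*, a motor of the mitotic spindle, was 311, 350.2, 359.6 and 312 in aTreg and 1718, 1971, 1613 and 1360 in rTreg libraries (log2 fold change −2.31, adjusted p = 0.00117, limma). Every aTreg library lay below every rTreg library for both. Without mouse 2, 35 of the 40 were lower, without mouse 1, 21, and without mouse 4, 27.

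For *Top2a*, which untangles DNA, the log2 fold change was −1.83 (adjusted p = 0.00139, limma), the cyclin *Ccna2* −2.36 (adjusted p = 0.00139, limma) and the kinase *Plk1* −2.29 (adjusted p = 0.0015, limma). Of 40 genes of DNA replication and S phase 15 were lower and 0 higher, with a median of −0.79, and 9 were lower without mouse 2, 4 without mouse 1 and 4 without mouse 4. *Rrm2*, a subunit of ribonucleotide reductase, was 1297, 1507, 1371 and 1305 in aTreg and 4463, 4705, 5792 and 4322 in rTreg libraries (log2 fold change −1.81, adjusted p = 0.0012, limma). The transcription factor *E2f8* (−2.77, adjusted p = 0.00497, limma), the replication factor *Mcm10* (−2.29, adjusted p = 0.00475, limma) and *Uhrf1*, which maintains DNA methylation (−1.68, adjusted p = 0.00512, limma), were lower too. Of 15 CDK inhibitors and RB family genes only *Cdkn3* was called (−1.88, adjusted p = 0.0495, limma), and it lost the call whichever mouse was left out. The old rTreg libraries with high cell cycle values are the ones with non-T markers, and the part of those cells in the cell cycle values was not tested.

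Promoters of mitosis genes often carry a cell cycle genes homology region, whose core is TTTGAA, and CCAAT boxes. On either strand of the 250 bases before the start site, TTTGAA was present in 35.1% of 37 RefSeq windows of the 40 mitosis genes (35 of which had a window) and in 10.9% of 12540 windows of all tested genes. CCAAT was present in 75.7% and 35.2% of these windows. These motifs can share 1 base and were counted separately. The windows of the 3 called mitosis genes with the smallest p that hold TTTGAA are shown, since these genes fell together. They were taken from the RefSeq promoter table (GRCm38.p6), each was found once in GRCm39, and capitals mark TTTGAA or its reverse complement.
*Kif11*, plus strand of chr19:37364580-37364829: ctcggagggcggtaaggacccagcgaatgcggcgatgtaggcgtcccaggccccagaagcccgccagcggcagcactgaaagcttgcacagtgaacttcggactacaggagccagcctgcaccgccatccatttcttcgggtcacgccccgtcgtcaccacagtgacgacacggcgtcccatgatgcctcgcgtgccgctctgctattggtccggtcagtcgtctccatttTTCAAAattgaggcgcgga
*Top2a*, minus strand of chr11:98915016-98915265: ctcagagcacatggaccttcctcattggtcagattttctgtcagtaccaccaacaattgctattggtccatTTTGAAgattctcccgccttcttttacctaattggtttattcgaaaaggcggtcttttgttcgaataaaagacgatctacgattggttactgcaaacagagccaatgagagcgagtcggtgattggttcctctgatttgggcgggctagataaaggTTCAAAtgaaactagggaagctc
*Mki67*, minus strand of chr7:135318109-135318358: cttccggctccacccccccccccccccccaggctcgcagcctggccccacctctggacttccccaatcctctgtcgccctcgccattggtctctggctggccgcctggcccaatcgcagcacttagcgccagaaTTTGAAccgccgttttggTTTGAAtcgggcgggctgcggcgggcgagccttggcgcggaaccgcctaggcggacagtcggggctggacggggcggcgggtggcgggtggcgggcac
The match nearest to the start site began 19 bases before it in *Kif11*, 23 in *Top2a* and 98 in *Mki67*. A match is a description of the letters and does not show that a factor binds there.

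**Figure D4:**
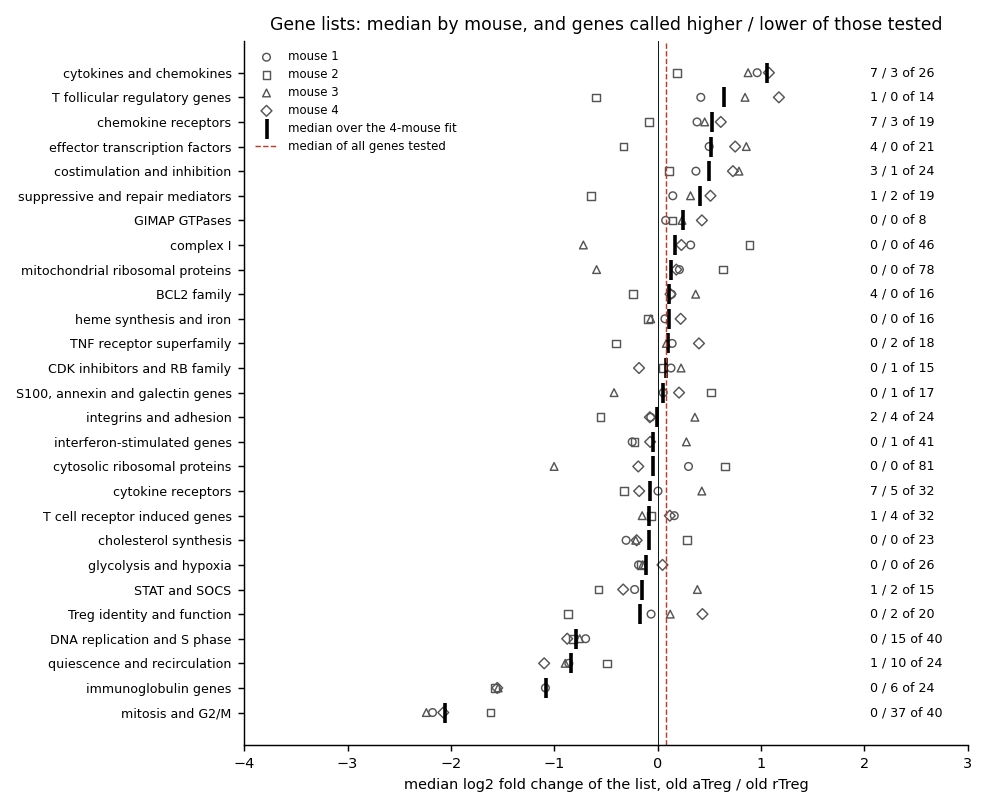
Median log2 fold change of each pathway list between old aTreg and old rTreg cells (x axis), for the 4-mouse fit (black bar) and in each mouse (open symbols), with the median of all tested genes as a dashed line. The numbers at the right give the genes called higher and lower and the genes tested. The mitosis list lies between −2.24 and −1.62 in every mouse, and the ribosomal and complex I lists spread across 0 among the mice.

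Genes of non-T lineages were among the lower genes with the largest fold changes. Many of them were near 0 in old aTreg libraries and passed the filter on low values through the old rTreg libraries, so how many of them were called carries no support. The basophil and mast cell markers *Mcpt8*, *Prss34*, *Ms4a2*, *Fcer1a* and *Gata2* were such genes. *Fcer1a*, a chain of the high-affinity IgE receptor, was 0, 0, 2.36 and 0 in aTreg and 645, 821, 2685 and 883 in rTreg libraries (adjusted p = 0.000156, limma). The basophil proteases *Mcpt8* and *Prss34* were 0, 14.5, 3.94 and 0 and 0, 13.4, 0.787 and 0 in aTreg and 479, 1984, 1569 and 1039 and 619.8, 3401, 2111 and 1013 in rTreg libraries of mice 1 to 4. Several aTreg values are at 0, so no fold change is given. In young rTreg libraries *Mcpt8* was 0 to 12.3 and *Prss34* 0 to 27.7.

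Among the 6 monocyte and macrophage markers tested 3 were lower. *Lyz2*, the macrophage lysozyme, had the smallest p of all genes tested, with 224, 133, 202 and 104 in aTreg and 16258, 9633, 25153 and 9381 in rTreg libraries and a log2 fold change of −6.44 (SE 0.19, adjusted p = 2.17e-05, limma). *Csf1r*, the receptor on which macrophages depend, was 9.09, 8.26, 15.7 and 7.81 and 684, 143, 747 and 369 (log2 fold change −5.23, adjusted p = 0.00201, limma), and *Cd68* was 81.6 to 109 and 185 to 350.5 (log2 fold change −1.60, adjusted p = 0.0344, limma). The *Cd68* call was lost whichever mouse was left out.

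The 12 lower genes with the smallest p also held *Ccl6*, *Ccl9*, *Tyrobp*, *Emilin2*, *Cyp11a1*, *Cxcr2* and *Rab44*. The chemokine genes *Ccl6* and *Ccl9* were 7.27, 9.3, 24.4 and 6.51 and 6.36, 2.07, 10.2 and 13 in aTreg and 2473, 1916, 9345 and 5200 and 1319, 1005, 4346 and 2197 in rTreg libraries. *Tyrobp*, a signaling adaptor of myeloid and natural killer cells, was 14.5, 10.3, 17.3 and 13 in aTreg and 1085, 904, 4699 and 1775 in rTreg libraries (log2 fold change −6.86, SE 0.41, adjusted p = 0.000256, limma). *Emilin2*, an extracellular matrix glycoprotein, was 4.54 to 24.7 in aTreg and 1088 to 2379 in rTreg libraries (log2 fold change −7.06, adjusted p = 0.000151, limma). *Cyp11a1*, which starts steroid synthesis, was 0.909 to 5.21 in aTreg and 600.4 to 2081 in rTreg libraries. *Cxcr2*, a neutrophil receptor, was 0 to 3.15 and 396 to 1608, and *Rab44*, a GTPase of granules, 0 to 2.6 and 457 to 1268. *Csf2rb*, the shared receptor chain for interleukin-3, interleukin-5 and GM-CSF, was 0 to 11.8 in aTreg and 936 to 2158 in rTreg libraries. *Lgals3*, a galectin of macrophages and activated T cells, was 165 to 774 and 1478 to 3770 (log2 fold change −2.65, adjusted p = 0.00228, limma).

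Of 6 plasma cell markers tested *Jchain* and *Igkc* were lower. *Igkc*, the kappa light chain constant region, was 3799, 1096, 2007 and 2352 in aTreg and 23955, 18205, 29306 and 23399 in rTreg libraries (log2 fold change −3.47, adjusted p = 0.00047, limma), and *Jchain* was 100.2 to 423 and 2941 to 9158 (log2 fold change −4.36, adjusted p = 0.00356, limma). *Igha*, the constant region of IgA, was 346, 22.7, 1021 and 423 and 6637, 7719, 30017 and 5683 (log2 fold change −5.31, adjusted p = 0.00548, limma), highest in the rTreg library of mouse 3. *Ighm*, the constant region of IgM, was 21778 to 56573 and 35269 to 79259 (log2 fold change −0.29, adjusted p = 0.558, limma), and was higher in aTreg cells in 2 of 4 mice. Of 24 immunoglobulin genes tested 6 were lower. The MHC class II genes *H2-Aa* (−2.49, adjusted p = 0.00384, limma) and *H2-Ab1* (−2.90, adjusted p = 0.00415, limma) were lower, 2 of the 5 presentation genes tested.

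Of 5 natural killer cell markers *Ncr1*, *Gzma* and *Eomes* were lower, of which 1 was called without mouse 1 and 1 without mouse 4. *Ncr1*, an activating receptor of these cells, was 1.82, 0, 11 and 22.1 in aTreg and 212, 127, 568 and 448 in rTreg libraries (log2 fold change −5.77, adjusted p = 0.00306, limma). *Klrb1c*, which encodes the natural killer receptor NK1.1, was 1288, 450.4, 571 and 1186 in aTreg and 263, 262, 367 and 750 in rTreg libraries, above its rTreg value in all 4 mice (log2 fold change 1.09, adjusted p = 0.122, limma). The summed natural killer markers overlapped between aTreg (500 to 1520) and rTreg libraries (942 to 2235). Of 7 erythroid markers tested 4 were lower, 2 without mouse 1 and 1 without mouse 4, among them *Hba-a1* (−2.87, adjusted p = 0.0142, limma), *Hbb-bs* (−2.62, adjusted p = 0.0145, limma) and *Gata1* (−2.40, adjusted p = 0.00306, limma), and the list summed to 320.2 to 805 in aTreg and 2131 to 3644 in rTreg libraries. Neutrophil markers were called in 2 of 5, dendritic cell markers in 2 of 4 and platelet markers in 1 of 3, namely *Itga2b* (−4.30, adjusted p = 0.00117, limma). Stromal and endothelial markers were called in 1 of 1, namely *Pecam1*, B cell markers in 0 of 5 and CD8 T cell markers in 0 of 1. All called ones were lower in aTreg cells. The stromal and endothelial list was also lower in young aTreg (summed value 1403 to 2423) than in young rTreg libraries (2704 to 3951). The dendritic cell marker *Zbtb46* was higher in aTreg cells in 4 of 4 mice and not called (log2 fold change 2.58, adjusted p = 0.282, limma), and the other 2 platelet markers tested had log2 fold changes above 0, which put the median of that list at 0.77.

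In the remaining lists few or no genes were called. By limma no gene was called among 81 cytosolic ribosomal protein genes (median −0.05), 78 mitochondrial ribosomal protein genes (0.13), 46 complex I genes (0.17), 26 genes of glycolysis and hypoxia (−0.11), 23 of cholesterol synthesis (−0.09), 16 of heme synthesis and iron (0.11) and 8 GIMAP GTPases (0.25). In the order given, unadjusted p was below 0.05 for 0, 4, 1, 4, 4, 2 and 1 of them. By edgeR 0 were called in each, and by DESeq2 0, 1, 1, 1, 2, 2 and 0. The mice differed in sign on the ribosomal and complex I lists, and the medians of the complex I list were 0.32, 0.89, −0.72 and 0.23 in mice 1 to 4. Of 41 interferon-stimulated genes 1 was lower, of 18 TNF receptor family genes 2 were lower, and of 17 S100, annexin and galectin genes 1 was lower. Of 24 integrin and adhesion genes 2 were higher and 4 lower (1 lower without mouse 1 or mouse 4). Over all genes tested 1.79% were higher and 3.02% lower.

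The same comparison in young mice was set beside these results to ask which aTreg to rTreg differences depend on age. The difference of the differences, old minus young, was tested over the 16 libraries of both ages with the mouse as a block (limma, 15836 genes with a value of 10 in at least 4 of the 16). It was higher for 92 genes, 0.581% of those tested, and lower for 253 genes, 1.6%. Of the 261 genes called higher in old aTreg cells 228 had a log2 fold change above 0 in young mice too, 47 had a larger difference in old mice and 3 a smaller one. Of the 440 lower genes 358 were below 0 in young mice, and 135 had a difference that lay lower in old mice. The 261 and 440 genes were chosen by their change in the same old libraries, which favors differences in that direction. These counts are therefore no further support, and no share over all genes tested is given for the direction in young mice. Without old mouse 1, 34 genes had a higher and 104 a lower difference. The counts were 73 and 142 without old mouse 2, 931 and 1229 without old mouse 3, and 63 and 144 without old mouse 4. Both libraries of young mouse 2 stood apart, with B cell marker sums of 11453 in aTreg and 19614 in rTreg cells against at most 1545 in the other 6 young libraries. Without this mouse 28 genes had a higher and 137 a lower difference.

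**Figure D5:**
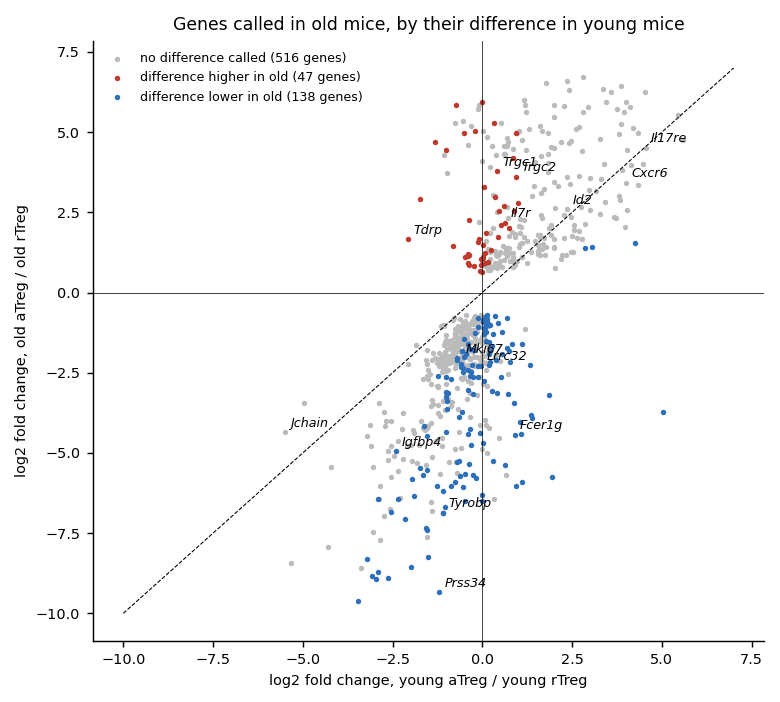
Log2 fold change between aTreg and rTreg cells in old mice (y axis) and in young mice (x axis) for the 701 genes called in old mice. Red and blue points mark genes whose difference between ages was called higher or lower in old mice, and the dashed line marks equal values. *Il17re* and *Cxcr6* lie near the line, while *Trgc1*, *Trgc2* and *Il7r* lie above it and *Igfbp4*, *Tyrobp* and *Fcer1g* below it.

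For *Il17re*, *Cxcr6*, *Tmem176b* and *Id2* no difference between ages was called. *Il17re* had a log2 fold change of 4.55 in young and 4.52 in old mice (difference −0.03, SE 0.52, adjusted p = 0.979, limma) and *Cxcr6* 4.00 and 3.42 (adjusted p = 0.532, limma). The levels of *Il17re* were 153, 361, 216 and 202 in young aTreg and 12.3, 19.9, 2.64 and 7.03 in young rTreg libraries, below the old values of the same subset in every library. For *Tmem176b* the difference was 0.94 (SE 0.22, adjusted p = 0.0538, limma), with young values of 1056 to 2492 in aTreg and 183 to 432 in rTreg libraries. *Id2* had 2.35 in young and 2.60 in old mice (adjusted p = 0.404, limma).

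The difference was larger in old mice for *Trgc1*, which was 446, 441, 522 and 259 in young aTreg and 313, 215, 347 and 372 in young rTreg libraries (difference 3.38, SE 0.44, adjusted p = 0.00747, limma). *Trgc2* (2.69, SE 0.36, adjusted p = 0.00872, limma), *Il7r* (1.54, SE 0.20, adjusted p = 0.00732, limma) and *Cd40lg* (1.28, SE 0.27, adjusted p = 0.043, limma) also had higher differences, the last of which lost its call by edgeR, without the mouse as a block and without old mouse 1, old mouse 2 or young mouse 2. *Sptssa*, a subunit of serine palmitoyltransferase, was 7958 to 15451 in old aTreg libraries and 2751 to 4143 in young aTreg libraries, while old rTreg libraries held 3219 to 3651 and young ones 3477 to 4271 (difference 1.69, SE 0.21, adjusted p = 0.0067, limma). *Tdrp* went from lower in young aTreg cells (log2 fold change −2.07) to higher in old ones (1.66), a difference of 3.73 (SE 0.43, adjusted p = 0.00487, limma).

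*Igfbp4* fell further in old mice. It was 1053, 1285, 762 and 1383 in young aTreg libraries, above all 4 old ones, and 4428 to 7621 in young rTreg libraries (difference −2.55, SE 0.31, adjusted p = 0.0067, limma). *Bach2* (−1.33, adjusted p = 0.0175, limma) and *Actn1* (−1.82, adjusted p = 0.037, limma) also fell further, and *Actn1* lost its call without young mouse 2. How the gates were set at each age is not given in the sources used here.

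The young subsets overlapped for *Lrrc32*, with 5308, 7542, 4399 and 6350 in aTreg and 6129, 7118, 4234 and 6800 in rTreg libraries, and its difference was −2.24 (SE 0.35, adjusted p = 0.0171, limma). *Nr4a1* (−1.34, adjusted p = 0.0162, limma), *Dusp4* (−2.46, adjusted p = 0.0123, limma) and *Socs3* (−1.29, adjusted p = 0.0249, limma) had lower differences in old mice as well. The smallest p of the difference was that of *Fcer1g*, an adaptor of Fc receptors (−5.34, SE 0.36, adjusted p = 0.000311, limma). Others with a small p were *Tyrobp* (−5.75, SE 0.47, adjusted p = 0.000663, limma), the hexokinase gene *Hk3* (−5.48, adjusted p = 0.000908, limma) and the lipoprotein receptor gene *Scarb1* (−2.37, adjusted p = 0.0023, limma). Basophil marker sums were 3932 to 9961 in old and 58.7 to 165 in young rTreg libraries, monocyte marker sums were 10262 to 26819 and 619.5 to 9353, and their part in these differences was not tested.

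Cell cycle genes were lower in young aTreg cells by less on the median, at −0.78 against −2.06 in old mice for the mitosis list. Of the 40 mitosis genes 2 had a difference called lower in old mice, and for *Mki67* it was −1.45 (SE 0.42, adjusted p = 0.0958, limma). *Mki67* values were 293, 363, 440.5 and 241 in young aTreg and 633, 1231, 329.6 and 236 in young rTreg libraries, so the young rTreg libraries of mice 3 and 4 were near the aTreg values and those of mice 1 and 2 above them. The median of the S phase list was −0.15 in young and −0.79 in old mice, with 0 of 40 differences called.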

How the data were processed

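Spleen Tregs of 4 young and 4 old mice were sorted into 3 subsets per mouse and sequenced with SMART-Seq v4, in 24 libraries. The authors aligned reads with HISAT2 2.2.1 to GRCm39, used SAMtools 1.13, counted with HTSeq 1.99.2 and normalized with DESeq2 1.44.0, per the labels. The deposited values are a signal, reads per gene divided by 1 size factor per library, in 1 table. All values were whole multiples of 1 read (tolerance 0.001 reads, 100% whole). The annotation release, strand setting and treatment of multiply mapped reads are not given in the sources used here. Listed genes had at least 100 reads in sum. Fragments carried no molecular identifiers, so the depth of 15267276 to 29521942 reads bounds counting error only.

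Symbols and positions came from GENCODE M39 (GRCm39), which matched 17353 of 17464 genes. Log2(value + 1) was fitted with limma 3.58.1 (trend, mouse as a block) in R 4.3.3. Fold changes are on that scale, which understates changes of low genes. Calls required p below 0.05 after Benjamini-Hochberg adjustment and more than 1.5-fold change. Genes needed a value of 10 in at least 4 of 8 libraries, or of 16 for the difference between ages. The libraries of a mouse share its number because the subsets were sorted from the same animals, and their deviations from the group means correlated at 0.113, −0.0472, −0.0931 and 0.0746 in mice 1 to 4. Reads recovered from the values were tested with edgeR 4.0.16 and DESeq2 1.42.0. Genes named are the 12 higher and 12 lower genes with the smallest p, the leading differences between ages, called members of 42 lists and a set of Treg genes; others are said to be chosen later. The comparison, lists and tests were chosen with earlier results of these data known. Tests were checked on simulated counts. Promoter windows came from RefSeq. Some genes that the naming rule chose are not reported here.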

Additional observations from a re-analysis of the deposited data

Results flagged for a closer look

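In 22 of 254 groups of 4 libraries looked at (8.66%) 1 library lay apart from the other 3 by more than Dixon's 95% limit for 4 values, where chance passes about 1 group in 20.

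Mouse 2 accounted for 8 of these. Its aTreg library was low for *Id3* (1311 against 1908 to 2004 in the other 3 mice), *Lrrc32* (351 against 1424 to 1493) and *Gpr83* (481 against 1406 to 1516). It was high for *Il23r* (1519 against 479 to 599.6), *Tnfsf14* (1493 against 912 to 986), *Prss34* (13.4 against 0 to 0.787) and the summed conventional helper T cell genes (18237 against 12648 to 13201). Its rTreg library was high for *Bhlhe40* (4964 against 1118 to 1745).

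The rTreg library of mouse 3 was high for *Fcer1a* (2685 against 645 to 883), *Igha* (30017 against 5683 to 7719), *H2-Ab1* (2325 against 789.8 to 1038), *Hbb-bs* (1073 against 326 to 349), *Ccl4* (7644 against 1236 to 1843) and the summed erythroid markers (3644 against 2131 to 2195). Its aTreg library was high for *Csf1r* (15.7 against 7.81 to 9.09), *Fcer1a* (2.36 against 0 in the other 3), *Ccl6* (24.4 against 6.51 to 9.3) and *Cxcr2* (3.15 against 0 in the other 3), all of which rest on few reads. In mouse 1 the aTreg library was high for *Trgc1* (4377 against 2646 to 2903) and *Gzma* (34.5 against 12.6 to 14.5), and the rTreg library for *Il1rl1* (1249 against 629 to 688). In mouse 4 the aTreg library was high for *Cx3cr1* (26.03 against 10.3 to 11.02).

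For 37 of the genes described, the difference between old and young mice in the aTreg to rTreg log2 fold change was called (limma). It was higher in old mice for 6 of them, at 3.73 for *Tdrp*, 3.38 for *Trgc1*, 2.69 for *Trgc2*, 1.69 for *Sptssa*, 1.54 for *Il7r* and 1.28 for *Cd40lg*. Among genes of T cells it was lower for *Igfbp4* (−2.55), *Bach2* (−1.33), *Actn1* (−1.82), *Lrrc32* (−2.24), *Socs3* (−1.29), *Nr4a1* (−1.34), *Dusp4* (−2.46) and *Ier3* (−2.14), some of which other cells express too. It was also lower for *Il1rl1* (−2.48) and *Lgals3* (−2.38), described above for T cells and for basophils, mast cells or macrophages. It was lower as well for *Eomes* (−3.89), counted above among natural killer cell markers, and the lipoprotein receptor gene *Scarb1* (−2.37). Among genes best known from myeloid cells, basophils and natural killer cells it was lower for *Lyz2* (−3.54), *Tyrobp* (−5.75), *Fcer1g* (−5.34), *Hk3* (−5.48), *Emilin2* (−4.92), *Ccl4* (−5.08), *Ccr1* (−5.07), *Cx3cr1* (−4.33) and *Cd244a* (−4.70). For *Fcer1a* (−6.14), *Prss34* (−8.13), *Mcpt8* (−6.57), *Gata2* (−5.82), *Cxcr2* (−6.28), *Rab44* (−5.99), *Il6* (−5.84), *Csf2rb* (−6.73), *Cyp11a1* (−5.09) and *Ncr1* (−5.60) some or all old aTreg values were at or near 0, so the fitted value depends on the pseudocount and is no bound. Of the 37 differences 16 were no longer called in the fit to all 24 libraries, 9 by edgeR, 9 without the mouse as a block, and 8 of 36 that could be tested without old mouse 1. Without young mouse 2, the differences of *Cd40lg*, *Actn1*, *Socs3*, *Ier3* and *Eomes* were no longer called.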

How the results depend on the processing

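The 261 higher and 440 lower genes stayed within 1.5 times these counts with a pseudocount of 0.5 or 5, another filter on low values, TMM scaling and no replicate block (357 and 582 without the block). The fit to all 24 libraries with a random replicate block gave 914 and 702, DESeq2 746 and 785, and an unadjusted p with the fold threshold, the rule in the study's methods, 1156 and 1034. edgeR gave 135 higher genes. Leaving out 1 old mouse gave 53 to 216 higher and 132 to 420 lower genes. The 92 higher and 253 lower differences between ages became 157 higher with a pseudocount of 5, 46 and 148 by edgeR, 485 and 894 by DESeq2, 1170 and 1460 by unadjusted p, and 159 lower without the replicate block. Leaving out 1 mouse, old or young mouse 2, gave 28 to 931 and 104 to 1229. With old mice 1 and 4 alone, chosen after seeing the neutrophil markers in mice 2 and 3, they were 582 and 758. The cause of these shifts was not tested, apart from the fewer genes and libraries that enter when mice are left out.

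Of 100 called genes described, 56 kept their call under every alternative in which they could be tested, and 0 changed direction. Alternatives that only loosened the rule on p or on the fold could not remove a call. *Fcer1a*, *Gata2*, *Cyp11a1*, *Cxcr2*, *Rab44* and *Il6* are among the 56 but could be tested in only 11 alternatives, against 16 for *Igfbp4*. The call was lost for 34 without mouse 4, 32 without mouse 1, 9 without mouse 2 and 6 without mouse 3. Leaving out mice could not change a direction, since each called gene differed in the same direction in all 4 mice. The uncalled *Ikzf2* (−0.16) changed sign without mouse 2 (0.14, and −0.54 without mouse 4) and with mice 1 and 4 alone (0.44). The uncalled *Tcf7* (0.08) did so without mouse 3 (−0.073, and 0.24 without mouse 4) and with mice 1 and 4 alone (−0.20). Genes near 0 in 1 subset could not be tested when a mouse was left out, and at 4 mice per age a p that misses the threshold does not show equal expression.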
